A study of Mus musculus with 15 samples.

Results

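UDP-glucuronosyltransferases (Ugt) and sulfotransferases (Sult) are the main conjugating enzymes of the liver. The Ugt enzymes sit in the endoplasmic reticulum membrane and join glucuronic acid from UDP-glucuronate to bilirubin, steroids, bile acids and drugs, and the Sult enzymes of the cytosol join sulfate from the donor PAPS to phenols, steroids and bile acids. Both reactions make their substrates water-soluble, so that ABC transporters can move them into bile or blood. The members were all rows of the deposited gene table whose symbol begins with Ugt1a, Ugt2a, Ugt2b, Ugt3a or with Sult and a number: 41 of 24493 genes, of which 20 were Ugt and 21 Sult genes. Of these, 33 reached a TPM value of 1 (the length-normalised transcript abundance of the deposited table) in at least 1 library and were called expressed, namely 18 Ugt and 15 Sult genes. The 8 that were not expressed were Sult1c1, Sult2a3, Sult3a1, Sult3a2, Sult6b1, Sult6b2, Ugt2a1 and Ugt2a2. The lowest members inside this limit reached 1.42 TPM (Ugt1a10) and 1.91 TPM (Sult2a4), and the highest outside it, Sult3a1, reached 0.949 TPM.

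The 15 libraries were RNA-seq profiles of cells sorted straight from mouse liver, 3 libraries in each of 5 groups. The groups were reprogrammed cells of mice fed DDC, biliary cells of mice fed DDC, hepatocytes of mice fed DDC, biliary cells of untreated mice and hepatocytes of untreated mice. All groups carried the same label: AAV-TBG-Cre, a virus that expresses Cre recombinase from the hepatocyte promoter TBG, was given at 4 weeks of age. DDC, a porphyrinogenic compound that injures the bile ducts, was fed in chow from 5 weeks of age for 4 weeks, so the DDC groups differ from the untreated groups in diet alone as far as the labels say. The series title names the reprogrammed cells as hepatocytes in origin; the labels used here name no sort markers, strain or sex. They do not say whether libraries of a group came from separate animals, so p-values measure the spread between these libraries, which may be technical.

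The label of each cell type was checked on marker genes. All 10 biliary epithelial markers examined were higher in biliary than in hepatocyte libraries of either diet and in reprogrammed cells than in DDC hepatocytes, and 6 of them, Krt19, Krt7, Epcam, Cldn7, Cftr and Cd24a, stayed under 0.5 TPM as deposited in each untreated hepatocyte library. Hepatocyte transcripts were, however, abundant in the libraries of every cell type. Measured in each library against the hepatocyte library of the same number and diet, the median of 20 hepatocyte markers stood at 58.2, 84.0 and 61.1% in reprogrammed cells, at 37.6, 43.6 and 22.2% in DDC biliary cells and at 50.1, 40.1 and 39.5% in untreated biliary cells. Levels below are TPM divided by a scale factor per library (scaled TPM), the median over 12427 genes of the ratio to the geometric mean; reprogrammed cells had factors of 1.06 to 1.39, DDC biliary cells 1.42 to 1.65, DDC hepatocytes 0.645 to 0.772, untreated biliary cells 1.33 to 1.48 and untreated hepatocytes 0.558 to 0.61. TPM keeps no read depth, so the depth of the libraries is unknown.

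The sequences of these genes bear on how far their values can be trusted one by one. The 8 Ugt1a members each have a first coding exon of their own on chromosome 1 and share the 4 coding exons that follow, 735 coding bases between positions 88215044 and 88218421 of GRCm38, the assembly also called mm10. The junction below is shown for 5 of them because it marks where their transcripts become identical: 30 bases of each first exon in lower case, then the first 30 shared bases in capitals, 5′ to 3′ on the plus strand, from GENCODE M21.
Ugt1a1: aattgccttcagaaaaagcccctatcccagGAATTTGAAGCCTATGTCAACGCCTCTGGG
Ugt1a6a: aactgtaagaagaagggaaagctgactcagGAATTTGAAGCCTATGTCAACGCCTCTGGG
Ugt1a6b: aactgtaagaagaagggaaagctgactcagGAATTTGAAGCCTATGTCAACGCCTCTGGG
Ugt1a7c: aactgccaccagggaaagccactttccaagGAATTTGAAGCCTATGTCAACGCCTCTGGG
Ugt1a9: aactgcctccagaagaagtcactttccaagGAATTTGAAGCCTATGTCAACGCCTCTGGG
Ugt1a6a and Ugt1a6b are identical in the printed stretch. Counted over the whole reference transcript, 100% of the 31-base substrings of Ugt1a6a and 85.1% of Ugt1a6b occur in another gene. For both, Ugt1a7c alone holds that same share. The values are 58.5% for Ugt1a1 and 43.0% for the 1 reference transcript of Ugt1a7c. How reads of the shared part were divided rests on the authors' quantification, so the split among Ugt1a genes is uncertain. This holds for each value and call of the low Ugt1a7c below, beside the far more abundant Ugt1a6b.

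The Sult2a genes on chromosome 7 have a similar limit. Their first 60 coding bases are shown for some members that were higher in some DDC libraries and for Sult2a8, which was lower. Capitals mark bases that differ from Sult2a1 at the same position, compared without gaps, all 5′ to 3′ on the coding strand.
Sult2a1: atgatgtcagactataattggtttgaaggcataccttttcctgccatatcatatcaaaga
Sult2a2: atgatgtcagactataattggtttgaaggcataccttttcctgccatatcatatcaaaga
Sult2a5: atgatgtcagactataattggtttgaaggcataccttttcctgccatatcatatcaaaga
Sult2a6: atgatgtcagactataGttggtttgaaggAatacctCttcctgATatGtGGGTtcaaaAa
Sult2a8: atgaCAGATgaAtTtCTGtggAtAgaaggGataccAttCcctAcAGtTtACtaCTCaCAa
Sult2a1, Sult2a2 and Sult2a5 are identical over this stretch, while Sult2a6 has 11 and Sult2a8 has 26 differences. Of the members not printed, Sult2a3, which was not expressed, has 4 differences. Sult2a4, also higher in some DDC libraries, has 45, but its coding sequence is shorter, at 852 bases against 855 in Sult2a1. Its letters run as those of Sult2a1 begun at a later base. The ungapped count therefore does not measure its likeness to Sult2a1, and 47.0% of its 31-base substrings occur in another gene. Over the whole transcript 55.6% of the substrings of Sult2a1, 74.5% of Sult2a2 and 51.1% of Sult2a5 occur in another gene, against 15.7% of Sult2a6. None of the substrings of Sult2a8, Sult1e1 or Sult2b1 does, so these 3 are not affected by such sharing. Among the Ugt2b genes of chromosome 5, 56.4% of the substrings of Ugt2b5 and 52.9% of Ugt2b38 are shared, mostly with each other, but 0.826% of Ugt2b1.

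In untreated hepatocytes the most abundant member was Ugt2b5, which conjugates steroids and drugs, at 2121, 2066 and 1864 scaled TPM. It was followed by Ugt2b36 (1277, 1311 and 1292), Sult2a8 (1095, 905 and 950) and Ugt2b1 (858, 876 and 784 scaled TPM). By deposited TPM, Ugt2b5 ranked 109, Ugt2b36 168, Sult2a8 231 and Ugt2b1 281 among all genes. The 7 Ugt2b genes together made up 68.5 ± 0.131% of the Ugt transcripts (SD, n = 3), and Sult2a8 alone 55.8% of the Sult transcripts. Sult1a1, the main phenol sulfotransferase, had 588, 519 and 523 scaled TPM, and Ugt1a1, the enzyme that conjugates bilirubin, 435, 462 and 400.

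**Figure D1:**
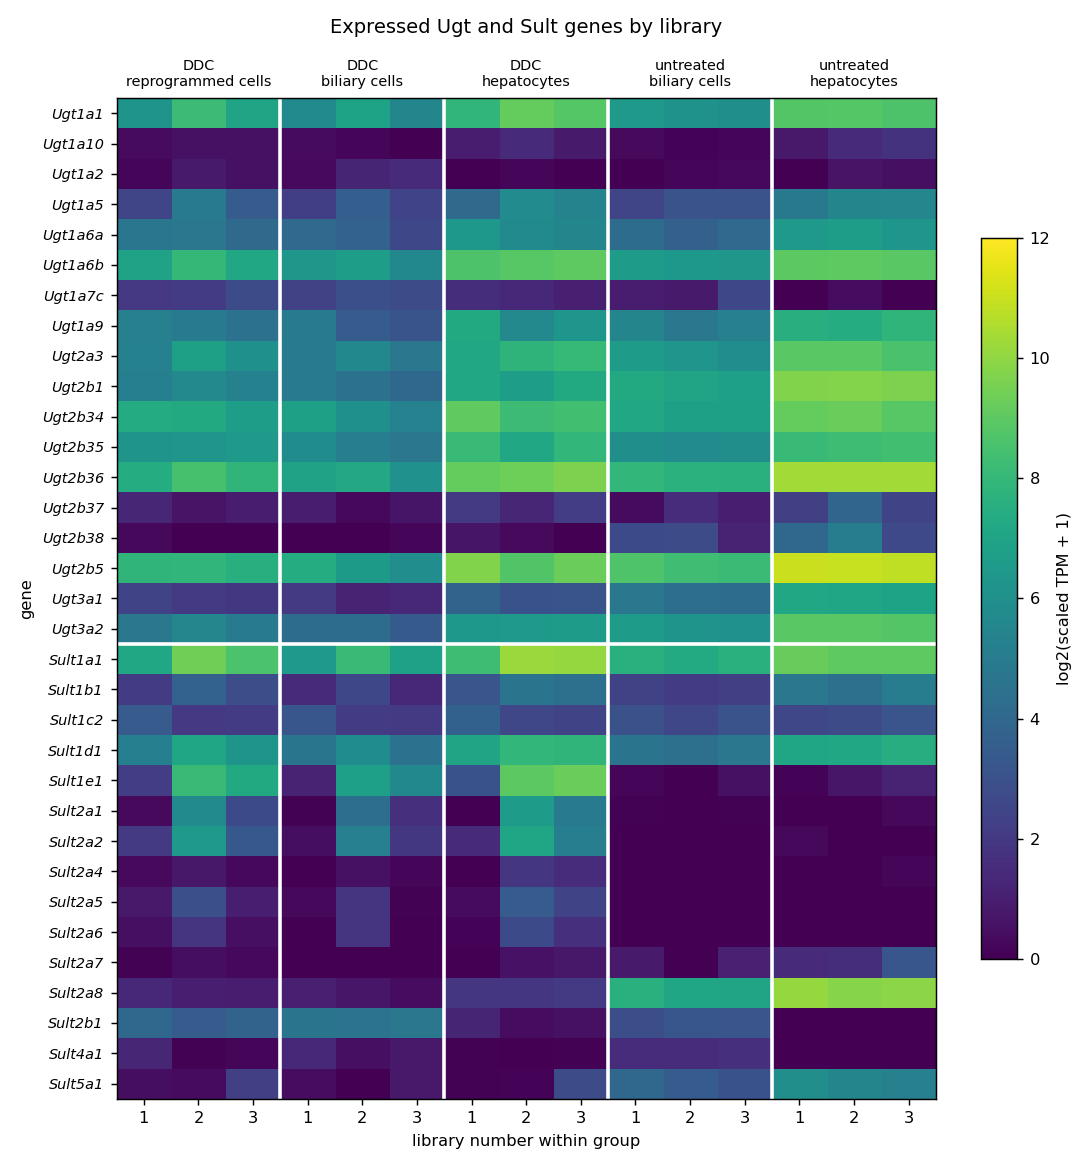
Level of the 33 expressed Ugt and Sult genes (rows) in each of the 15 libraries (columns, 3 per group), as log2(scaled TPM + 1), dark for low and yellow for high. Sult2a8 is high in untreated libraries of both cell types and at most 3.14 scaled TPM in any DDC library, Sult2b1 is higher in reprogrammed and biliary cells than in hepatocytes of the same diet, and Sult1e1, Sult2a1 and Sult2a2 are higher in DDC libraries 2 and 3 than in DDC library 1 of each cell type.

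Hepatocytes of mice fed DDC were compared with hepatocytes of untreated mice to describe the response to DDC. Sult2a8 and members of the Ugt2b and Ugt3a families fell, while Sult1e1 and Sult2a2 were higher in a part of the DDC libraries. Of the 31 members that passed the filter on low values (1 TPM or more in 3 libraries; 17 Ugt and 14 Sult genes), 4 rose and 9 fell by the call used throughout, which asks for a log2 difference of 1 or more in either direction together with a limma adjusted p under 0.05. Over all 13905 genes tested, 11.0% were called, 6.62% higher and 4.39% lower. The median log2 difference was -0.95 over the 17 Ugt genes and 0.40 over the 14 Sult genes, against 0.02 over all genes. Markers of other cells moved with diet as well. Of the 10 biliary markers 5 were called higher and 0 lower, and their summed level ranged between 290 and 613 scaled TPM in DDC hepatocytes and between 20.4 and 26.4 in untreated hepatocytes, with Krt7 and Cftr under 0.5 TPM as deposited in each library of both groups. Of the 20 hepatocyte markers 1 was higher and 5 lower, with a median log2 difference of -0.33. The part of either marker list in the values that follow was not tested.

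Sult2a8, which in mice sulfates bile acids, had 2.78, 2.68 and 3.14 scaled TPM in DDC hepatocytes, against 1095, 905 and 950 in untreated hepatocytes. The groups lie far apart and the DDC libraries are close to each other. The means were 2.87 ± 0.243 in DDC hepatocytes and 983 ± 99.5 in untreated hepatocytes (SD, n = 3 each), a log2 difference of -7.99 ± 0.19 (SE) with a limma adjusted p of 4.09e-11, and a 343-fold lower mean. Sult5a1, an orphan sulfotransferase, had 0.0649, 0.0745 and 5.79 scaled TPM in DDC hepatocytes, against 60.2, 43.9 and 36.2 in untreated hepatocytes. It fell by 4.56 on the log2 scale (limma adjusted p 0.000292), with DDC library 3 above the other 2. Sult2a7 was low throughout, averaging 0.412 in DDC hepatocytes and 3.95 scaled TPM in untreated hepatocytes, and its call (log2 difference -1.61, limma adjusted p 0.0114) was lost without the DDC libraries numbered 1 (limma adjusted p 0.0573).

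Both Ugt3a genes fell; in humans the enzymes of this family use sugar donors other than UDP-glucuronate. Ugt3a1 had 13.0, 7.08 and 7.67 scaled TPM in DDC hepatocytes, against 141, 133 and 123 in untreated hepatocytes. That is a log2 difference of -3.74 ± 0.26 (SE, limma adjusted p 6.48e-07), and the 2 groups do not overlap. Ugt3a2 averaged 89.4 ± 8.67 in DDC hepatocytes and 470 ± 21.8 scaled TPM in untreated hepatocytes (SD, n = 3 each; log2 difference -2.38, limma adjusted p 1.35e-05). Together they were 2.87 ± 0.118% of the Ugt transcripts in DDC hepatocytes and 8.2 ± 0.104% in untreated hepatocytes (SD, n = 3 each).

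Of the Ugt2b genes, 3 of 7 fell. Ugt2b1, which conjugates steroids and phenols, had 140, 100.8 and 153 scaled TPM in DDC hepatocytes, against 858, 876 and 784 in untreated hepatocytes. This 6.39-fold lower mean corresponds to a log2 difference of -2.69 ± 0.23 (SE, limma adjusted p 3.39e-06). Ugt2b5 had 854, 432 and 635 scaled TPM in DDC hepatocytes, against 2121, 2066 and 1864 in untreated hepatocytes (log2 difference -1.71 ± 0.32 SE, limma adjusted p 0.00182). All DDC values of both genes lie below all untreated values. Ugt2b38, which shares much of its sequence with Ugt2b5, averaged 0.272 ± 0.291 in DDC hepatocytes and 17.8 ± 13.9 scaled TPM in untreated hepatocytes (SD, n = 3 each; log2 difference -3.59, limma adjusted p 0.000276). Ugt2b36 had 580, 656 and 783 in DDC hepatocytes, against 1277, 1311 and 1292 scaled TPM in untreated hepatocytes; its log2 difference of -0.95 (limma adjusted p 0.0246) missed the size limit of the call, although its groups do not overlap. Ugt2b34 and Ugt2b35 had log2 differences of -0.56 and -0.52 and overlapping groups.

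In the Ugt2a family, Ugt2a3, which conjugates bile acids, had 140, 226 and 259 scaled TPM in DDC hepatocytes, against 482, 482 and 379 in untreated hepatocytes. It fell by 1.14 on the log2 scale (limma adjusted p 0.0307), and all DDC values lie below all untreated ones. The call was lost without untreated hepatocyte library 1 or 2, and without the DDC libraries numbered 1 or DDC hepatocyte library 1 alone (log2 difference -0.88 in both, limma adjusted p 0.0522 without all 3).

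Of the 7 tested Ugt1a genes 1 was called, in the direction opposite to the Ugt2b calls. Ugt1a1 had 236, 564 and 450 scaled TPM in DDC hepatocytes, against 435, 462 and 400 in untreated hepatocytes, with a log2 difference of -0.14 (95% CI -1.18 to 0.90). Ugt1a6b, which conjugates phenols, averaged 466 ± 61.8 in DDC hepatocytes and 503 ± 13.1 scaled TPM in untreated hepatocytes (SD, n = 3 each), with a log2 difference of -0.12 (95% CI -0.71 to 0.48). For both genes the groups overlap, and the intervals allow a change in either direction. Ugt1a9 had 154, 48.5 and 78.6 scaled TPM in DDC hepatocytes, against 182, 174 and 228 in untreated hepatocytes (log2 difference -1.20, limma adjusted p 0.0678). Without the DDC libraries numbered 1, a setting chosen after the data were seen, it was called lower (log2 difference -1.63, limma adjusted p 0.0011). Ugt1a7c rose by 1.19 on the log2 scale, at 1.96, 1.59 and 1.06 scaled TPM in DDC hepatocytes against 0, 0.328 and 0 in untreated hepatocytes (limma adjusted p 0.0394). This call was lost without any 1 library of DDC or untreated hepatocytes, without DDC biliary library 3 and without the DDC libraries numbered 1 (limma adjusted p 0.11). As a share of the Ugt transcripts, which does not depend on the scaling, the Ugt1a family stood at 31.6 ± 6.33% in DDC hepatocytes and 17.2 ± 0.707% in untreated hepatocytes (SD, n = 3 each).

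The other 3 genes that rose in DDC hepatocytes were sulfotransferases whose values split the DDC libraries. Sult1e1, which inactivates estrogens by sulfation, had 7.25, 509 and 619 scaled TPM in DDC hepatocytes, against 0.0993, 0.631 and 1.27 in untreated hepatocytes. DDC library 1 lies far below libraries 2 and 3, yet above each untreated library. The log2 difference was 6.43 ± 1.83 (SE, limma adjusted p 0.0199). Without the DDC libraries numbered 1, left out after the data were seen, it was 8.46 (limma adjusted p 1.06e-06). That p-value is therefore no independent support. The call was lost without DDC hepatocyte library 2 or 3 or untreated hepatocyte library 1 or 2 (highest limma adjusted p 0.0771). Sult2a2 had 1.80, 133 and 34.3 scaled TPM in DDC hepatocytes, against 0.204, 0 and 0 in untreated hepatocytes (log2 difference 4.48 ± 1.43 SE, limma adjusted p 0.0335). Its call was lost without DDC hepatocyte library 2 or 3 or any 1 untreated hepatocyte library. Sult2a5 had 0.297, 9.83 and 4.45 scaled TPM in DDC hepatocytes and was listed at 0 in all 3 untreated hepatocyte libraries (log2 difference 2.09, limma adjusted p 0.0465); 4 of the 15 fits that leave out a library kept its call. Sult2a1, a hydroxysteroid sulfotransferase, was not called over all libraries, at 0, 94.3 and 28.9 scaled TPM in DDC hepatocytes against 0, 0 and 0.208 in untreated hepatocytes (log2 difference 3.73, limma adjusted p 0.101).

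**Figure D2:**
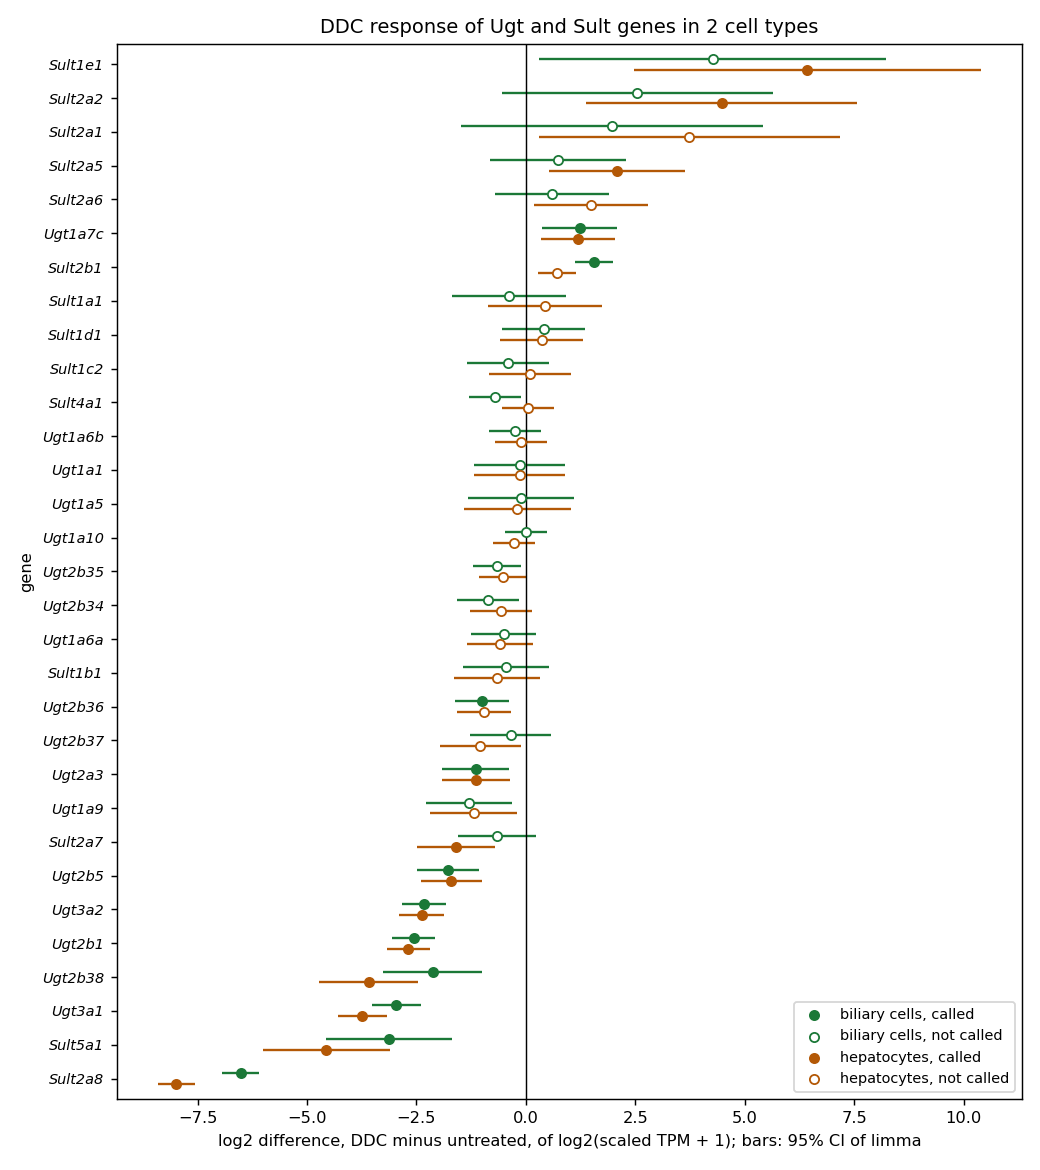
Log2 difference, DDC minus untreated, of the 31 tested members (rows, ordered by the hepatocyte value), in biliary cells (green) and hepatocytes (orange), each from 3 libraries per group. Points are limma estimates, filled where called and open where not, and bars are 95% confidence intervals; Sult2a8 stands at -6.51 in biliary cells and -7.99 in hepatocytes, and the intervals of Sult1e1 and Sult2a1 are the widest.

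The split between DDC library 1 and DDC libraries 2 and 3 recurred in each of the 3 cell types. Sult1e1 had 3.55, 269 and 154 scaled TPM in reprogrammed libraries 1, 2 and 3, and 1.28, 108 and 47.0 in DDC biliary libraries 1, 2 and 3, beside 7.25, 509 and 619 in DDC hepatocytes. As a percentage of the same-numbered DDC hepatocyte library it stood at 34.6, 43.4 and 19.5% in DDC biliary cells. The hepatocyte marker medians there were 37.6, 43.6 and 22.2%. In reprogrammed cells it stood at 88.0, 81.0 and 47.7%, beside 58.2, 84.0 and 61.1%. The part of hepatocyte transcripts in this recurrence was not tested. Library 1 was the lowest of its group in every cell type for 5 of the 31 tested members, Sult1a1, Sult1e1, Sult2a1, Sult2a2 and Ugt1a5, and the highest for 4, Sult1c2, Ugt1a9, Ugt2b34 and Ugt3a1. In the other 22 its place differed by cell type. Sult1a1 had 304, 1171 and 1111 scaled TPM in DDC hepatocyte libraries 1, 2 and 3, so its mean of 862 ± 484, against 543 ± 38.7 in untreated hepatocytes (SD, n = 3 each), was not called (log2 difference 0.44, limma adjusted p 0.644). Without the DDC libraries numbered 1, Sult1a1 was called higher (log2 difference 1.07, limma adjusted p 0.033), as were Sult2a1 at 5.65 and Sult2a6 at 2.18. The libraries were left out after the data were seen, so these calls are a description and no independent support.

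Some sex-biased liver genes, which in mice follow growth hormone secretion, moved with the same split. The female-biased Cyp2b9 had 4.84, 76.3 and 62.2 scaled TPM in DDC hepatocyte libraries 1, 2 and 3, against 7.60, 22.5 and 42.1 scaled TPM in untreated hepatocytes. The male-biased Mup20 ran the other way, with 8914, 389.5 and 1144 in DDC hepatocytes against 9117, 15586 and 9155 scaled TPM in untreated hepatocytes. Not every gene of this kind followed the split: the male-biased Hsd3b5 and Elovl3 were near 0 in all 3 DDC hepatocyte libraries (at most 0.227 and 1.37 scaled TPM) with log2 differences of -8.27 and -9.34, and Cyp2d9 and Cyp7b1 were called lower as well. Xist stayed at or under 0.0327 scaled TPM and the Y-linked gene Ddx3y at or above 20.9 in every library. Cyp2b10, a target of the xenobiotic receptor CAR that also regulates conjugating enzymes, had 173, 910 and 881 scaled TPM in DDC hepatocytes against 24.1, 39.1 and 49.1 in untreated hepatocytes. The hepatocyte marker Alb also had its lowest DDC hepatocyte value in library 1, at 50843, 104484 and 109143 scaled TPM. In DDC biliary cells library 1 of Alb lay between the others, at 9919, 22320 and 9542. The part of these genes in the Sult values was not tested.

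**Figure D3:**
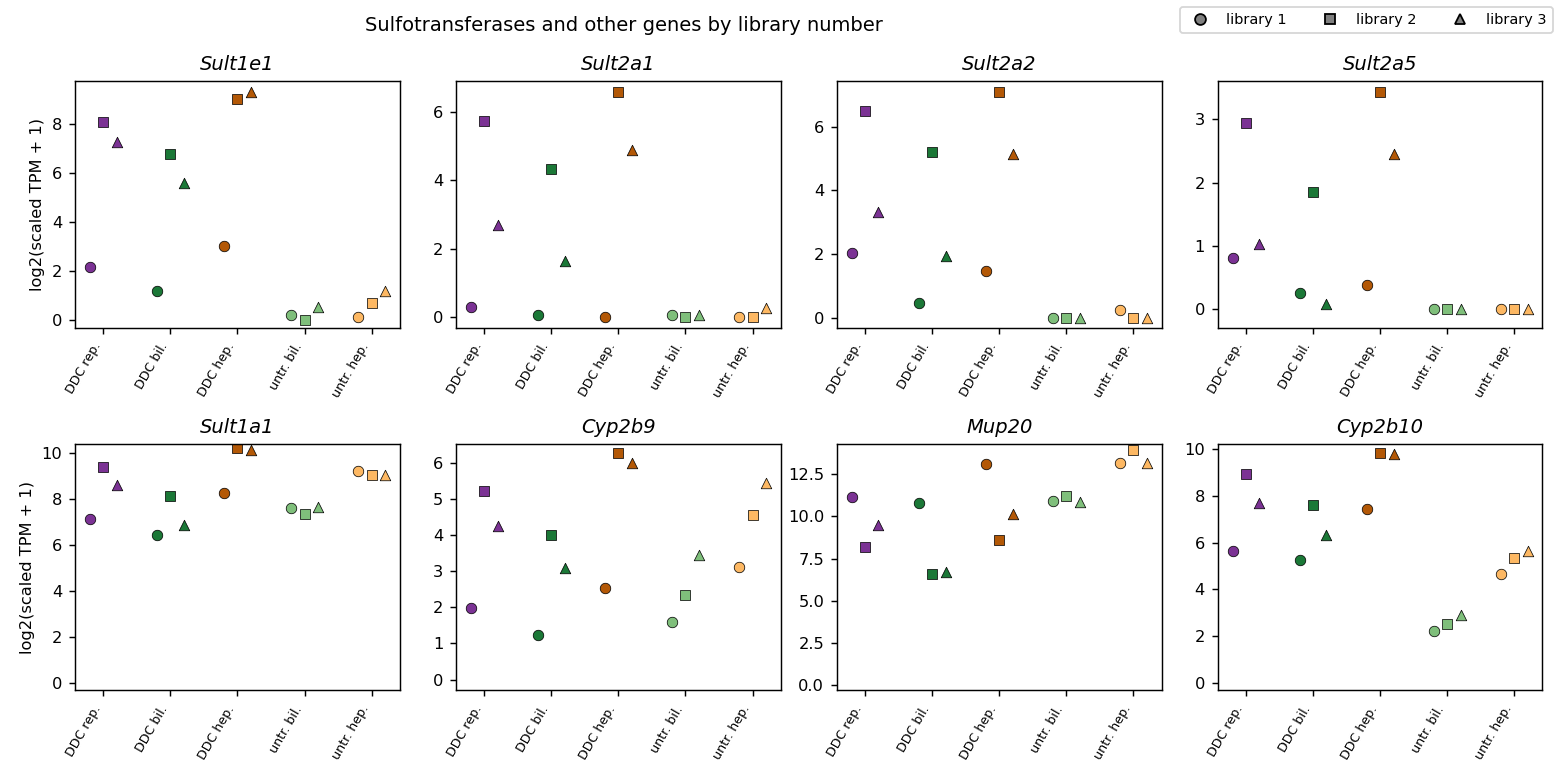
Log2(scaled TPM + 1) of 5 sulfotransferases and of Cyp2b9, Mup20 and Cyp2b10 in each library, with the groups along the x axis (rep., reprogrammed cells; bil., biliary cells; hep., hepatocytes; untr., untreated) and the symbol giving the library number. In every DDC group library 1 (circle) lies below libraries 2 and 3 for Sult1e1, Sult2a1, Sult2a2, Sult1a1, Cyp2b9 and Cyp2b10 and above them for Mup20.

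The bases around the start of Sult2a5, called higher in DDC hepatocytes, and of Sult2a8, called lower, are printed to let their letters be compared; they come from RefSeq on GRCm38.p6 and run 5′ to 3′ on the gene's strand, chr7:13623717-13624016 (plus) for Sult2a5 and chr7:14446538-14446837 (minus, the outer of its listed starts) for Sult2a8. Capitals mark GTTAAT on either strand, the core of the motif bound by HNF1, a factor of hepatocyte genes.
Sult2a5: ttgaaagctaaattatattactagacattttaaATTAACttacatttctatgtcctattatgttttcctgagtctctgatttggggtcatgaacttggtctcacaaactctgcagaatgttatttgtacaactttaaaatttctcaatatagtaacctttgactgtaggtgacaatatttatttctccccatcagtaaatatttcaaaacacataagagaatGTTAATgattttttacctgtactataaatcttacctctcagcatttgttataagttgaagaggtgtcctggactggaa
Sult2a8: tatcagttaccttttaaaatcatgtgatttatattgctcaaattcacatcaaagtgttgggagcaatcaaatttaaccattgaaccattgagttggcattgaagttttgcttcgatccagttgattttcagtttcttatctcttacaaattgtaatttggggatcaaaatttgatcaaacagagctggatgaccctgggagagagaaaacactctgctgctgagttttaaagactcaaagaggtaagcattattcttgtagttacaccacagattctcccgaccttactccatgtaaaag
Sult2a5 holds 2 matches and the printed Sult2a8 window none. The matches did not sort the members by their calls: Sult2a3, which was not expressed, also holds 2, and Sult1e1, called higher, holds 0. Windows of related genes that read much alike, as those of Sult2a3, Sult2a4 and Sult2a5, are counted below as separate members. Of the 41 members 35 had such a window, and 13 of them (37.1%) held GTTAAT, against 8.24% of 27025 genes. GCGTG, the core bound by the aryl hydrocarbon receptor, was in 4 members (11.4%) against 35.2% of all genes, and TGACNNNGC, the core of the antioxidant response element, was in 0 of the 35 members against 14.0% of all genes. Both strands were searched, and a match is a description of the letters.

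Biliary cells of mice fed DDC were compared with biliary cells of untreated mice. Sult2a8, Sult5a1 and Ugt genes of the 2a, 2b and 3a families fell here too, and Sult2b1 rose. Of the 31 members 2 rose and 9 fell, where 10.4% of all genes were called, 5.63% higher and 4.78% lower. Those shares are from the fit of all libraries, so they are no background for the counts that follow. Without the DDC libraries numbered 1, left out after the data were seen, 5 rose and 11 fell. Sult1e1 (log2 difference 5.93), Sult2a1 (2.94) and Sult2a2 (3.58) were then called higher, and Ugt1a9 (-1.85) and Ugt2b34 (-1.24) lower. Ugt1a7c was called higher in both cell types, and 8 members were called lower in both, which is 8 of the 9 that fell in biliary cells and 8 of the 9 that fell in hepatocytes; over all genes tested, 44.1% of those that fell in biliary cells and 48.0% of those that fell in hepatocytes were called lower in both. The 8 were Sult2a8, Sult5a1, Ugt2a3, Ugt2b1, Ugt2b38, Ugt2b5, Ugt3a1 and Ugt3a2. Hepatocyte transcripts were abundant in both groups of biliary libraries, as given above, and the median of the 20 hepatocyte markers differed by -0.59 on the log2 scale between them, with 5 lower and 0 higher. In bulk libraries such as these, fewer cells of a type and less RNA per cell cannot be told apart, and the part of hepatocyte transcripts in these values was not tested.

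Sult2a8 had 1.08, 0.63 and 0.327 scaled TPM in DDC biliary cells, against 198, 132 and 129 in untreated biliary cells, a log2 difference of -6.51 ± 0.19 (SE, limma adjusted p 3.89e-10). Ugt3a1 had 3.12, 1.22 and 1.51 in DDC biliary cells, against 27.0, 19.1 and 18.2 scaled TPM in untreated biliary cells (log2 difference -2.96, limma adjusted p 4.74e-06). Ugt2b1 had 29.7, 20.9 and 15.5 in DDC biliary cells, against 157, 130 and 109 scaled TPM in untreated biliary cells (log2 difference -2.56, limma adjusted p 5.19e-06). For these 3 genes every DDC library lies below every untreated one. Ugt2b36 averaged 112 ± 41.5 in DDC biliary cells and 215 ± 25.7 scaled TPM in untreated biliary cells (SD, n = 3 each; log2 difference -1.01, limma adjusted p 0.0195), and its call was lost without DDC biliary library 3 or untreated biliary library 1. The call of Ugt2a3 (log2 difference -1.15) was lost without DDC biliary library 1 or 3 or untreated biliary library 1 or 2. Ugt1a1, at a mean of 72.6 in DDC biliary cells and 73.3 scaled TPM in untreated biliary cells, had a log2 difference of -0.14 (95% CI -1.19 to 0.90).

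Sult2b1, which sulfates cholesterol and pregnenolone, had 23.7, 22.8 and 26.3 scaled TPM in DDC biliary cells, against 6.44, 8.23 and 8.06 in untreated biliary cells. The DDC libraries lie within a narrow range above the untreated ones, DDC library 1 included. The mean was 24.3 ± 1.79 in DDC biliary cells and 7.58 ± 0.989 in untreated biliary cells (SD, n = 3 each), a log2 difference of 1.56 ± 0.20 (SE, limma adjusted p 0.000104). Among the 10 biliary markers 3 rose and 0 fell, with a median log2 difference of 0.34. Of the 6 stellate cell and fibroblast markers tested 2 rose and 1 fell, and their summed level ranged between 12.5 and 73.7 scaled TPM in DDC biliary libraries and between 19.0 and 30.4 in untreated ones; their part in the Sult2b1 value was not tested. Ugt1a7c also rose, at 4.00, 6.64 and 5.82 scaled TPM in DDC biliary cells against 0.874, 0.805 and 4.98 in untreated biliary cells (log2 difference 1.23, limma adjusted p 0.036). The groups overlap, untreated library 3 being above DDC library 1, and the call was lost without DDC biliary library 2 or 3 or untreated biliary library 1 or 2.

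The difference between the DDC responses of the 2 cell types, biliary minus hepatocyte, was tested as an interaction. Of the 31 members 1 was called, where 8.42% of all genes were, 3.39% with a positive and 5.03% with a negative difference, and at an unadjusted p under 0.05 there were 2. That gene was Sult2a8, whose fall was smaller by 1.47 ± 0.27 on the log2 scale in biliary cells (SE, limma adjusted p 0.00329). Its DDC values lie near 0 in both cell types, and its untreated level was 153 ± 38.7 in biliary cells and 983 ± 99.5 scaled TPM in hepatocytes (SD, n = 3 each), so the value depends on the pseudocount: with 0.1 in place of 1 the difference was 0.66 and not called, and after quantile normalization it was -0.38 (limma adjusted p 0.37). The difference for Sult2b1 was 0.85 (95% CI 0.24 to 1.46, limma adjusted p 0.0681). Without the DDC libraries numbered 1, left out after the data were seen, Sult2b1 (1.12) and Sult1e1 (-2.53) were called beside Sult2a8 (1.29). For Ugt2b1 the difference was 0.13 (95% CI -0.56 to 0.82) and for Ugt1a1 0.00 (95% CI -1.48 to 1.47).

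Untreated biliary cells were compared with untreated hepatocytes to describe how the members differ between the cell types. Of the 31 members 3 were higher and 22 lower in biliary cells, where 37.2% of all genes were called, 21.6% higher and 15.6% lower. Of the 17 Ugt genes 16 were lower and 1, Ugt1a7c, higher, with a median log2 difference of -2.48 against 0.12 over all genes. The hepatocyte markers moved with them: all 20 were lower, with a median of -2.50. Under the deposited TPM without scale factors, which moved the median over all genes to 1.11, 12 of the 17 Ugt genes were still called lower.

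The Ugt genes that were abundant in hepatocytes sat close to those markers library by library. As a percentage of the same-numbered hepatocyte library, in deposited TPM, the Ugt genes of at least 10 TPM in hepatocytes had medians of 47.0, 37.8 and 37.9% in untreated biliary libraries 1, 2 and 3, beside marker medians of 50.1, 40.1 and 39.5%. Of the members of either family with at least 10 TPM in hepatocytes, 13 of 18, 16 of 19 and 14 of 18 fell within the range of the 20 markers. This limit leaves out in advance the members that are low in hepatocytes, such as Sult2b1 and Ugt1a7c. Sult1a1 was above that range in all 3 libraries, at 78.6, 75.8 and 92.6%. Ugt2b34 reached 58.5, 44.5 and 57.8%, above the range in library 3. Sult2a8 was at 43.1, 35.4 and 33.2%, below the range in library 1.

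**Figure D4:**
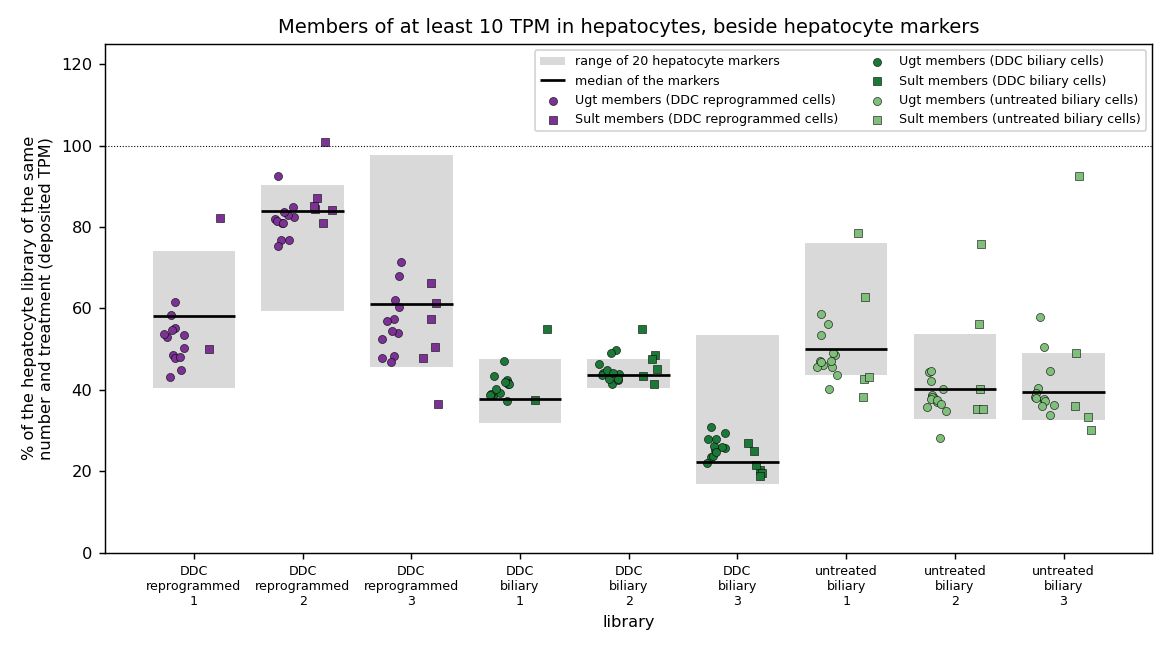
Level of each member with at least 10 TPM in hepatocytes (circles, Ugt; squares, Sult), as a percentage of the hepatocyte library of the same number and diet, in the 9 reprogrammed and biliary libraries along the x axis. Grey bands span 20 hepatocyte markers and black lines are their medians; the Ugt genes lie close to the lines, and in each untreated biliary library the highest square, above the band, is Sult1a1.

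Sult2b1 and Sult4a1 went the other way. Sult2b1 had 6.44, 8.23 and 8.06 scaled TPM in untreated biliary cells and was listed at 0 in all 3 untreated hepatocyte libraries (log2 difference 3.09 ± 0.20 SE, limma adjusted p 3.26e-08). Sult4a1, an isoform best known from brain, had 1.88, 1.86 and 2.18 scaled TPM in untreated biliary cells and was likewise listed at 0 in untreated hepatocytes (log2 difference 1.57, limma adjusted p 0.000234). Both sets of values lie within narrow ranges. Sult1c2, at 6.37 ± 1.35 in untreated biliary cells and 6.20 ± 1.60 scaled TPM in untreated hepatocytes (SD, n = 3 each), had a log2 difference of 0.04 (95% CI -0.90 to 0.98). This value depends on the scale factors: in TPM as deposited Sult1c2 stood at 335, 208 and 224% of the same-numbered hepatocyte library and was called higher in untreated biliary cells (log2 difference 1.11, limma adjusted p 0.0474).

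Under DDC, biliary cells differed from hepatocytes in 20 members, 2 higher and 18 lower, where 34.7% of all genes were called, 20.1% higher and 14.6% lower. Sult2b1 had 23.7, 22.8 and 26.3 scaled TPM in DDC biliary cells, against 1.33, 0.306 and 0.446 in DDC hepatocytes, a log2 difference of 3.94 ± 0.20 (SE, limma adjusted p 4.78e-09). Ugt1a7c had 4.00, 6.64 and 5.82 in DDC biliary cells, against 1.96, 1.59 and 1.06 scaled TPM in DDC hepatocytes (log2 difference 1.35, limma adjusted p 0.00888). The groups do not overlap for either gene. Of the Ugt genes 14 of 17 were lower. Ugt genes of at least 10 TPM in hepatocytes had medians of 41.3, 44.0 and 25.8% of the same-numbered hepatocyte library. The marker medians were 37.6, 43.6 and 22.2%. With the same limit, which leaves out members low in hepatocytes, 14 of 15, 14 of 18 and 18 of 18 members were within the marker range. Sult1e1 kept to the markers as well, at 34.6, 43.4 and 19.5%.

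Reprogrammed cells were compared with DDC hepatocytes, their stated origin, and with DDC biliary cells. Against DDC hepatocytes 1 member was higher and 14 were lower, where 19.5% of all genes were called, 13.7% higher and 5.80% lower, and 13 of the 14 were Ugt genes. Ugt2b1 had 35.0, 49.5 and 38.1 scaled TPM in reprogrammed cells, against 140, 100.8 and 153 in DDC hepatocytes (log2 difference -1.65 ± 0.23 SE, limma adjusted p 8.35e-05). Ugt3a2 had 27.0, 46.6 and 31.2 in reprogrammed cells, against 83.3, 85.4 and 99.3 scaled TPM in DDC hepatocytes (log2 difference -1.36, limma adjusted p 0.000488). The reprogrammed libraries lie below the hepatocyte libraries for both genes. With TPM as deposited, where the median over all genes was 0.71, 16 of the 17 Ugt genes were still below 0 but none was called lower, so these calls rest on the scale factors. Of the 20 hepatocyte markers 17 were lower, with a median of -1.39 against -1.42 for the Ugt genes. Of the members with at least 10 TPM in hepatocytes, 14 of 15, 16 of 18 and 17 of 18 lay within the range of the markers. Members low in hepatocytes are left out of these counts. The part of hepatocyte transcripts was not tested.

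Sult2b1 was the member that was higher in reprogrammed cells, at 15.1, 10.4 and 13.3 scaled TPM against 1.33, 0.306 and 0.446 in DDC hepatocytes (log2 difference 3.07 ± 0.20 SE, limma adjusted p 8.77e-08). All 10 biliary markers were higher as well, with a median log2 difference of 4.30. Set against DDC biliary cells, Sult2b1 averaged 12.9 ± 2.37 in reprogrammed cells and 24.3 ± 1.79 scaled TPM in DDC biliary cells (SD, n = 3 each), a log2 difference of -0.87 (95% CI -1.30 to -0.44, limma adjusted p 0.0156) that missed the size limit. In order of level the groups ran from untreated hepatocytes and DDC hepatocytes through untreated biliary cells and reprogrammed cells to DDC biliary cells, and no neighbouring pair of these groups overlaps.

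Reprogrammed cells exceeded DDC biliary cells in 6 members and were lower in none, where 3.63% of all genes were called, 2.91% higher and 0.726% lower; 15 of the 31 had an unadjusted p under 0.05. The 6 were Ugt1a6b, Ugt2b34, Ugt2b35, Ugt2b36, Ugt2b5 and Ugt3a2, with log2 differences between 1.06 and 1.20. Ugt2b36 had 174, 363 and 234 scaled TPM in reprogrammed cells, against 119, 149 and 66.9 in DDC biliary cells (limma adjusted p 0.0174). The shares of all genes just given are from the main fit, so they are no background for the counts that follow. With the library number as a block, which pairs these libraries, 14 members were higher. The count was 0 with just these 2 groups in the fit, and also without DDC biliary library 3 or reprogrammed library 2, and it was 3 without reprogrammed library 3. In TPM as deposited none of the 17 Ugt genes was called in either direction, and Sult2b1 was called lower in reprogrammed cells (log2 difference -1.19, limma adjusted p 0.00833). The hepatocyte markers were higher in 13 of 20, with a median log2 difference of 1.31 against 1.03 for the Ugt genes.

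Against untreated hepatocytes, which also served as the control of DDC hepatocytes, reprogrammed cells had 4 members higher and 20 lower, where 33.0% of all genes were called, 20.6% higher and 12.4% lower. Sult2a8 had 1.58, 1.01 and 0.873 scaled TPM in reprogrammed cells, against 1095, 905 and 950 in untreated hepatocytes (log2 difference -8.85 ± 0.19 SE, limma adjusted p 4.91e-12). Ugt2b1 averaged 40.9 ± 7.65 in reprogrammed cells and 839 ± 48.5 scaled TPM in untreated hepatocytes (SD, n = 3 each; log2 difference -4.34, limma adjusted p 5.71e-09). Both are far below the untreated range. The 4 higher members were Sult1e1, Sult2a2, Sult2b1 and Ugt1a7c, with log2 differences of 5.17, 3.86, 3.79 and 2.16, the first 2 resting on reprogrammed libraries 2 and 3 as described above.

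The make-up of the Ugt transcripts differed more between the diets than between the cell types. Between DDC hepatocytes and untreated hepatocytes 22.2% of the Ugt pool was made up of different members, measured as the sum, over the members with the larger share in one group, of the excess of their mean share, and between DDC and untreated biliary cells 21.1%. Within a diet the same measure was 2.10% for reprogrammed cells and 2.45% for biliary cells against DDC hepatocytes, and 3.05% for untreated biliary cells against untreated hepatocytes. Ugt2b5 made up 18.1% of the Ugt transcripts in reprogrammed cells, 17.7% in DDC biliary cells, 18.5% in DDC hepatocytes, 26.8% in biliary cells and 27.4% in hepatocytes of untreated mice. For Ugt1a1 the DDC libraries differed among themselves: it made up 7.18, 17.7 and 11.8% in reprogrammed libraries 1, 2 and 3, 7.06, 17.6 and 12.4% in DDC biliary libraries and 6.69, 17.95 and 12.3% in DDC hepatocyte libraries, against means of 5.75% in biliary cells and 5.88% in hepatocytes of untreated mice. Library 1 thus lies closest to the untreated shares in each cell type. With the DDC libraries numbered 1 by themselves, the part of the Ugt pool that differed between the diets was 19.7% in hepatocytes and 17.4% in biliary cells. These shares are a description with no test. The biliary and reprogrammed libraries held abundant hepatocyte transcripts, as given above. The part of those transcripts in the likeness of the cell types was not tested.

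In the Sult pool both diet and cell type moved the shares. Sult2a8 made up 0.317% in reprogrammed cells, 0.332% in DDC biliary cells, 0.291% in DDC hepatocytes, 38.6% in biliary cells and 55.8% in hepatocytes of untreated mice. Sult1a1 was the leading Sult transcript in all DDC groups, at 59.0% in reprogrammed cells, 53.8% in DDC biliary cells and 57.5% in DDC hepatocytes, and in untreated biliary cells as well, at 47.2%. Sult2b1 made up 7.04, 0.834 and 2.03% in reprogrammed libraries 1, 2 and 3, 16.01, 4.26 and 11.8% in DDC biliary libraries and 0.286, 0.0139 and 0.0216% in DDC hepatocyte libraries, so library 1 was the highest of each group. The Sult sum was itself lowest in library 1 of each DDC group. In deposited TPM it was 298, 1322 and 809 in reprogrammed libraries and 224, 757 and 369 in DDC biliary libraries. In DDC hepatocyte libraries it was 359, 1522 and 1331. The level of Sult2b1 was 23.7, 22.8 and 26.3 scaled TPM in DDC biliary libraries, and highest in library 1 in reprogrammed cells and DDC hepatocytes. Without the libraries numbered 1 the mean share of Sult2b1 was 1.43% in reprogrammed cells, 8.02% in DDC biliary cells and 0.0178% in DDC hepatocytes, and that of Sult2a8 was 0.107% in reprogrammed cells, 0.132% in DDC biliary cells and 0.137% in DDC hepatocytes.

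**Figure D5:**
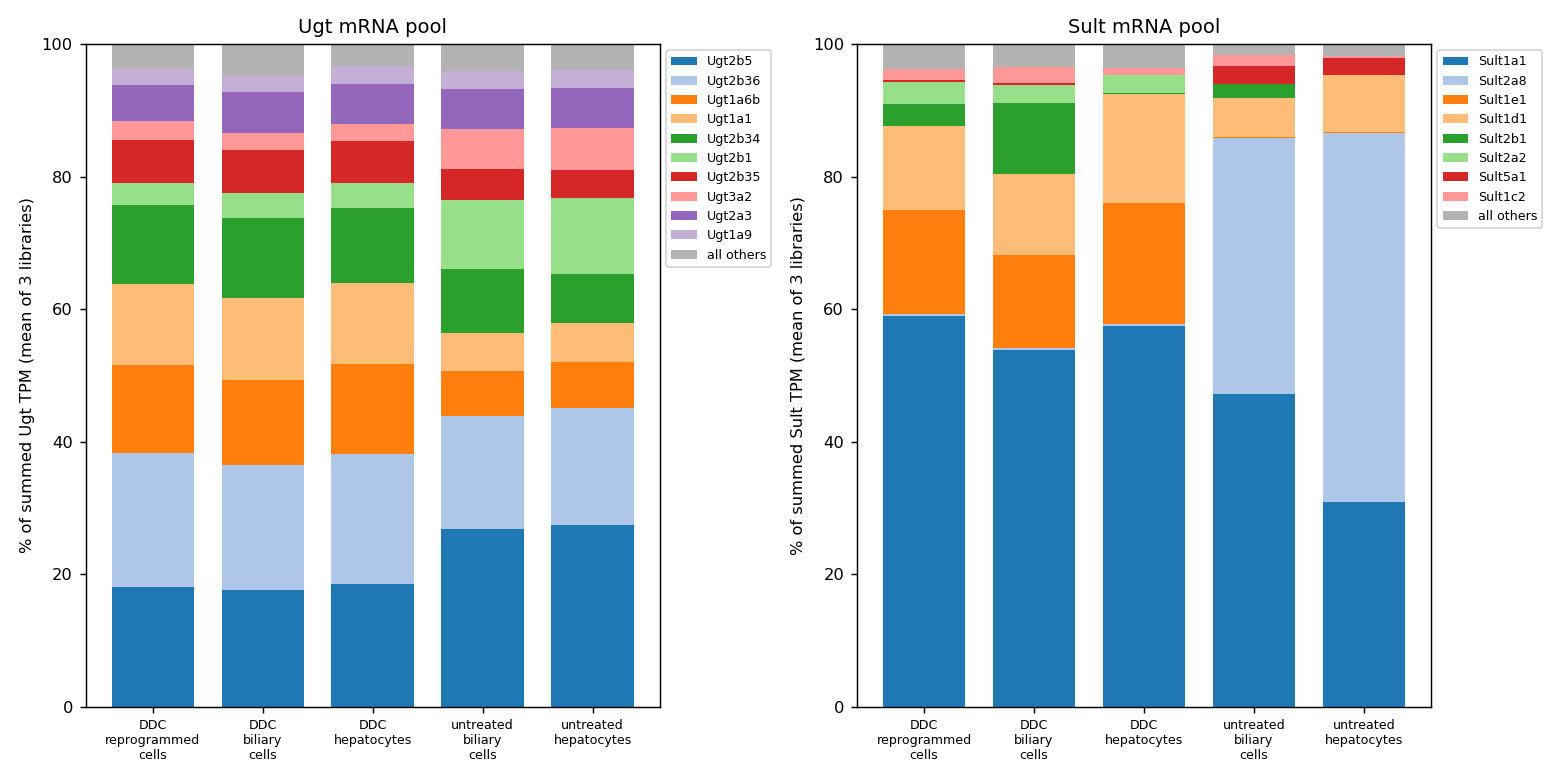
Share of each gene in the summed TPM of the Ugt genes (left) and Sult genes (right), as the mean of 3 libraries per group; genes that reach 2.5% in no group are joined as all others. The Ugt bars of the 3 DDC groups look alike and differ from the 2 untreated bars, in which Ugt2b5 is 26.8 and 27.4%; in the Sult bars Sult2a8 is visible in the untreated groups alone and Sult2b1 is largest in DDC biliary cells at 10.7%.

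The supply of the cosubstrates and the removal of the conjugates were followed in lists of other genes. Of 9 tested genes that make or carry UDP-glucuronate and PAPS, 0 were called in DDC hepatocytes against untreated hepatocytes, where 11.0% of all genes were; 3 of them had an unadjusted p under 0.05. Ugdh, which makes UDP-glucuronate, came closest, at 802, 427 and 506 scaled TPM in DDC hepatocytes against 268, 234 and 348 in untreated hepatocytes (log2 difference 0.99, limma adjusted p 0.0306). The PAPS synthases divided by cell type: Papss1 averaged 60.2 ± 4.08 in untreated biliary cells and 13.0 ± 0.943 scaled TPM in untreated hepatocytes (log2 difference 2.13, limma adjusted p 6.97e-08), and Papss2 27.4 ± 3.43 in untreated biliary cells and 152 ± 12.5 scaled TPM in untreated hepatocytes (log2 difference -2.44, limma adjusted p 8.46e-06; SD, n = 3 each). Of 4 transporters that export conjugates, Abcc4, which exports them to blood, was called in DDC hepatocytes, at 27.8, 15.8 and 13.7 scaled TPM against 0.678, 0.945 and 1.71 in untreated hepatocytes (log2 difference 3.21, limma adjusted p 9.33e-07). Abcc4 was also the 1 transporter called higher in DDC biliary cells against untreated biliary cells. Its groups do not overlap in hepatocytes, nor do those of Abcc3, also an exporter to blood, at 340, 413 and 306 scaled TPM in DDC hepatocytes against 166, 197 and 173 in untreated hepatocytes; its log2 difference of 0.97 (limma adjusted p 0.0141) missed the size limit. Abcc2 and Abcg2, which export to bile, overlapped, with log2 differences of 0.16 and -0.15. From a list of sulfatases and glucuronidases (Gusb, Sts, Arsa, Arsb and Hpse) 4 genes were tested. Of these, 0 were called by limma in DDC hepatocytes and 0 in DDC biliary cells, against 1 and 3 at an unadjusted p under 0.05. Whether each of them acts on products of the Ugt or Sult enzymes was not tested.

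Of 12 tested transcription factors that regulate conjugation, 0 were called by limma in DDC hepatocytes, where 11.0% of all genes were, and 3 had an unadjusted p under 0.05. The genes of CAR and PXR, Nr1i3 and Nr1i2, had log2 differences of -0.46 (limma adjusted p 0.454) and -0.14 (limma adjusted p 0.511), and Hnf4a had -0.25 (limma adjusted p 0.424). Nr1i3 differed by library, at 83.7, 162 and 163 scaled TPM in DDC hepatocyte libraries 1, 2 and 3. Of 10 tested target genes of these factors 4 rose and 1 fell, where 6.62% of all genes were called higher and 4.39% lower: Cyp2b10, Nqo1 and Srxn1 had log2 differences of 3.81, 2.37 and 1.86, Cyp1a1 averaged 2.40 ± 1.28 in DDC hepatocytes and 0.631 ± 0.12 scaled TPM in untreated hepatocytes (SD, n = 3 each), and Cyp4a10, a target of PPAR alpha, had a log2 difference of -2.27. Nqo1, a target of NRF2, had 58.4, 76.6 and 108 scaled TPM in DDC hepatocytes against 10.4 to 18.8 in untreated hepatocytes (limma adjusted p 0.000191). In DDC biliary cells Ahr was the 1 factor called against untreated biliary cells, averaging 38.6 ± 4.32 in DDC biliary cells and 14.3 ± 1.70 scaled TPM in untreated biliary cells (SD, n = 3 each; log2 difference 1.37, limma adjusted p 1.05e-05). Cyp1a1, its classical target, had a log2 difference of -0.02 there.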

How the data were processed

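The authors deposited 1 gene table of TPM (transcripts per 1e6), 1 column per library; it was made with Salmon on the mouse build mm10, per the submitters' processing notes, and the Salmon version, annotation and options are not given in the sources used here. RNA was extracted with a column kit for small samples, per the labels' protocols. The members and gene lists were chosen with earlier results of these data known.

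Each library was divided by the median, over 12427 genes above 0 in all 15 libraries, of its ratio to the geometric mean. Genes with at least 1 TPM in 3 libraries (13905 of 24493) were tested on log2(scaled TPM + 1) with limma 3.58.1 (R 4.3.3), 1 fit of the 5 groups with 10 residual degrees of freedom, empirical Bayes with trend, and Benjamini-Hochberg adjustment over all genes tested. A log2 difference on this scale understates the change of low genes. A gene was called where its log2 difference reached 1 in either direction with an adjusted p under 0.05. Of the 33 expressed members 31 passed the filter; Ugt1a2 and Sult2a4 did not. Full statistics were given first to called members whose higher group averaged 10 scaled TPM or more; Xist and Ddx3y were added after their values were seen.

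The fit was tested on simulated data. Alternatives were TPM as deposited, quantile normalization, other pseudocounts and filters, a fit of the compared groups alone, the library number as a block, leaving out each library, and, chosen after seeing the data, leaving out the 3 DDC libraries numbered 1. Library numbers come from the sample titles, which do not say what a number marks. Same-numbered libraries deviated together, with every correlation of their deviations over 0.1, between reprogrammed and DDC biliary cells (0.208 to 0.456), reprogrammed cells and DDC hepatocytes (0.136 to 0.449) and untreated biliary cells and hepatocytes (0.151 to 0.237), so the numbers were taken to pair the libraries there; for the other comparisons the lowest was between -0.118 and 0.043. The main fit held no block, so its p-values do not use this pairing. For DDC biliary cells against DDC hepatocytes, where the lowest correlation was 0.043, percentages of the same-numbered library were given all the same. Shared substrings were counted on 1 GENCODE M21 transcript per gene. Of the sex-biased liver genes, 1 is not reported here.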

Additional observations from a re-analysis of the deposited data

Results flagged for a closer look

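The DDC response of Sult2a8 differed between the cell types: biliary minus hepatocyte was 1.47 on the log2 scale (limma interaction, adjusted p 0.00329), with responses of -6.51 in biliary cells and -7.99 in hepatocytes. Sult2a8 was lower in all 3 DDC libraries of either cell type than in any untreated one. The difference was 0.66 and not called with a pseudocount of 0.1, 0.82 and not called in TPM as deposited, and -0.38 (limma adjusted p 0.37) after quantile normalization.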

How the results depend on the processing

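Of 115 calls of a member in a comparison, 115 held with the replicate block, 109 without the DDC libraries numbered 1, 110 with a pseudocount of 0.1, 92 with a pseudocount of 5, 107 with no filter, 98 with only the compared groups in the fit, 86 after quantile normalization and 72 in TPM as deposited; with a filter of 5 TPM 106 of the 106 still tested held. The block used the library number in every comparison, also across the diets, where same-numbered libraries did not deviate together. There it is no check on pairing. The 115 include those of untreated biliary cells against untreated hepatocytes, 3 higher and 22 lower. That comparison holds no DDC library, so leaving out DDC libraries is hardly a check on it. The cause of the lost calls was not tested. The 1 value that reversed was Sult2a8 in the response difference, -0.38 after quantile normalization.

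The number of members called in reprogrammed cells against DDC hepatocytes was 15, and 2, both higher, in TPM as deposited. Against DDC biliary cells it was 6; it was 1, Sult2b1 called lower, in TPM as deposited, 2 after quantile normalization, 0 with only these groups in the fit, 14 with the replicate block, 14 without the DDC libraries numbered 1, and 0 to 9 when 1 library was left out. For the response difference it was 1, and 0 in TPM as deposited, after quantile normalization or with a pseudocount of 0.1, 4 with a pseudocount of 5, 3 without the DDC libraries numbered 1, and 1 to 2 with 1 library left out, 2 without DDC hepatocyte library 1 or untreated hepatocyte library 3. For DDC hepatocytes against untreated hepatocytes it was 13, and 8 to 14 with 1 library left out, the lowest without untreated hepatocyte library 1 or 2. The block moved no other count by over 1.5 times. These are counts of members, with no share of all genes beside them. Leaving out a library leaves 2 in its group. TPM does not keep the depth, so the counting error of low members such as Sult2a7, Sult4a1 and Ugt1a7c is unknown, and 3 libraries per group limit every value.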
